A study of Mus musculus with 9 samples.

Results

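The Hox cluster genes are the mouse genes whose symbols consist of Hox, a cluster letter from a to d and a paralog number, and 39 of the 54232 genes counted in this study met that rule. The counts, sums and medians given here are over 38 of them. They were read from RNA-seq of 9 libraries of C57 x CBA mouse cells. Naïve mESCs, embryonic stem cells grown in S/L medium (serum and LIF) on feeders, and primed mEpiSCs, the epiblast-like stem cells converted from them in F/A medium (bFGF and Activin A) on feeders, were each sequenced at P5 and at P15 with 2 libraries, and the fibroblasts of the feeder cell type (MEFs) gave 1 library. Per the study's methods, the stem cells came from an ESC line derived from mice with a GFP reporter under the distal Oct4 promoter, and the feeders were mitomycin C-treated MEFs, so cells of both states were grown on fibroblasts. The labels do not say that the 2 libraries of a group came from separate cultures, so the p-values measure the spread between these libraries, which may be technical.

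Hox proteins are homeodomain transcription factors that give cells along the body axis their position. Their genes lie in 4 clusters, and the order of the genes within a cluster follows the order in which they are used from head to tail, with low paralog numbers at the anterior end and high numbers at the posterior end. In pluripotent cells the clusters are covered by Polycomb marks and mostly silent, whereas fibroblasts of the trunk and limbs keep the Hox code of the region they came from.

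In GRCm38, with GENCODE M21 gene models, the 10 Hoxa members described lay between positions 52162417 and 52260880 of chromosome 6, on the minus strand. The Hoxb cluster had 10 members on chromosome 11 (96194316 to 96368256), the Hoxc cluster 9 on chromosome 15 (102921103 to 103036852) and the Hoxd cluster 9 on chromosome 2 (74668310 to 74765142), all on the plus strand. The members are close relatives in sequence, which matters for counting because reads from the homeobox of one gene could align to another. Among 541 pairs of members from different clusters, the longest run of bases shared exactly between their coding sequences was 52, the median was 14 and 1 pair reached 50. The run of 40 bases shared by Hoxb9 (chr11:96274660-96274699, plus strand) and Hoxd9 (chr2:74699216-74699255, plus strand) is shown because Hoxb9 was the most abundant member per kb in MEFs and naïve cells, and it shows how much of a read could be the same in a pair of members. It lies in a coding exon of each gene and is in lower case since no single base is singled out:
Hoxb9 and Hoxd9: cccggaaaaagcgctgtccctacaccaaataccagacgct
The longest run was shared by Hoxb4 and Hoxa6, at 52 bases. Among the members called, the counts of Hoxb4 are thus the most exposed to reads of another member by this measure. Hoxa6 itself had 1 to 14 counts in a stem cell library, against 71 to 252 for Hoxb4. Hoxb4 also shared 47 bases with Hoxa7, which had 60 to 96 counts in a stem cell library and 636 in MEFs. How many reads of either gene were counted for Hoxb4 was not tested. Of the other members called, Hoxb7 and Hoxa5 shared at most 32 bases, Hoxa9 and Hoxc5 31, Hoxb2, Hoxb5 and Hoxc6 28, Hoxa11 24, Hoxa10 21, Hoxc13 19, Hoxb13 17 and Hoxd13 16. Exons that overlap those of neighbours add a second uncertainty, since the strand setting of the counting is not given in the sources used here. The overlap with other annotated genes covered 62.8% of the exon bases of Hoxd3, 52.9% of Hoxb3, 52.3% of Hoxd4, 35% of Hoxa11 (with Hoxa11os), 27.3% of Hoxb2 and 27.1% of Hoxa3, so the values of these members are uncertain to that extent.

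Hox RNA was present at a low level in every naïve and primed library and at a several-fold higher level in MEFs. Total counts were 14378051 to 20985136 in the stem cell libraries and 25646547 in MEFs. The 38 members together had 1549 to 2265 counts in a stem cell library and 10522 in MEFs. In CPM, which put the libraries on 1 scale by TMM, the sum over the members was 87.6 ± 1.78 in naïve P5, 111 ± 3.93 in naïve P15, 101 ± 3.65 in primed P5 and 126 ± 4.35 in primed P15 (SD, n = 2 each), against 447 CPM in MEFs. These sums were 19.6%, 24.9%, 22.6% and 28.1% of the MEF level. Between 34 and 36 members had a count in a stem cell library, and 25 to 29 had at least 10 counts. Hoxd4 had no count in any of the 8 libraries, which allows up to 3 counts or 0.148 to 0.221 CPM in a library, and 1 count in MEFs. Such limits cover counting error only.

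**Figure D1:**
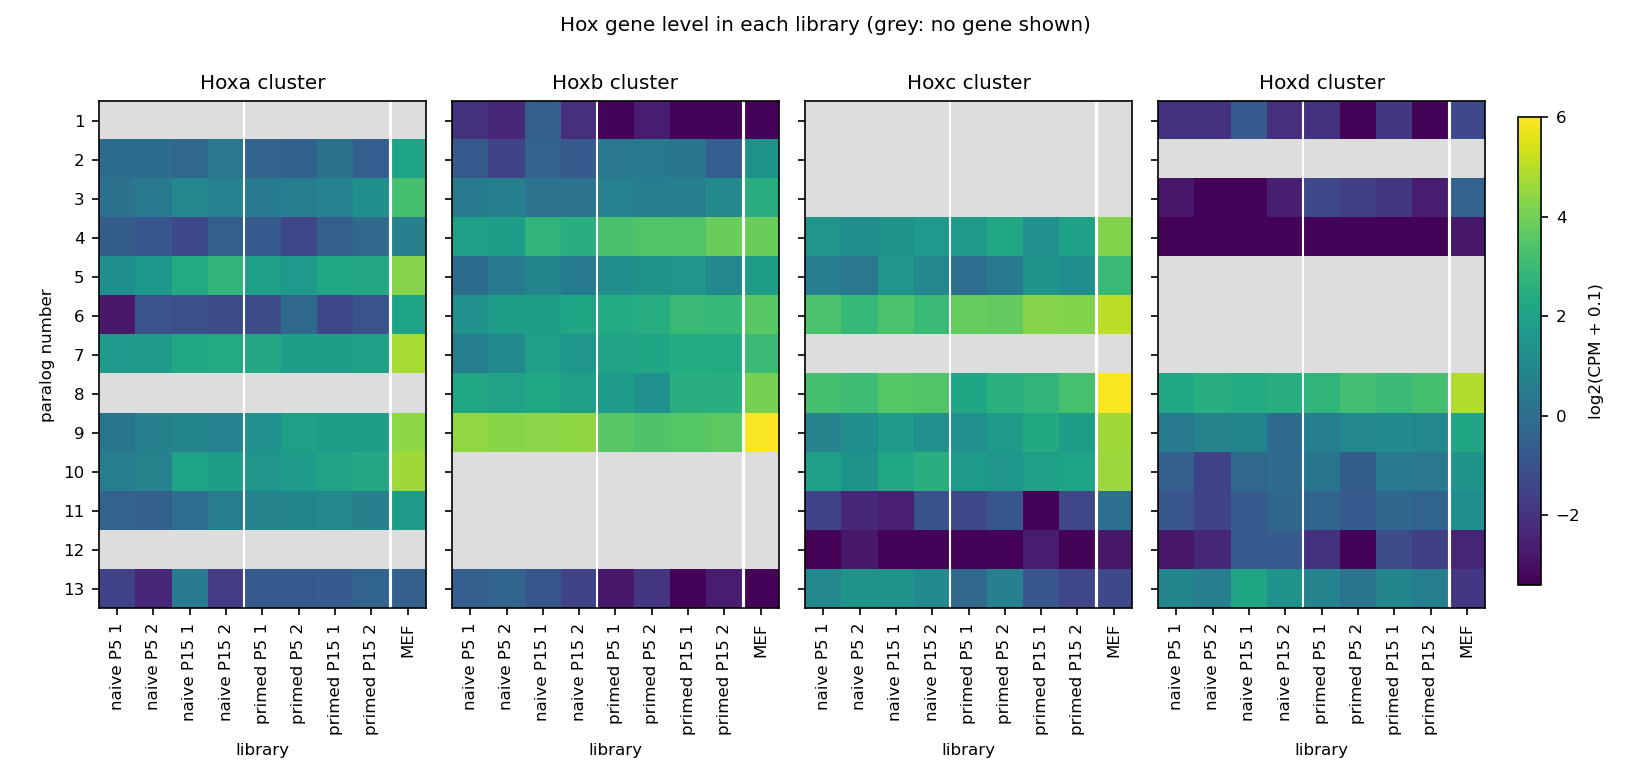
Each panel is a Hox cluster, each row a paralog number, each column a library, and the colour is log2 of CPM plus 0.1; grey marks positions with no gene shown. The MEF column is brighter than the stem cell columns for most members, while Hoxc13 and Hoxd13 in naïve and primed P5 columns are brighter than in MEFs.

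In MEFs, paralogs of groups 5 to 10 stood out. Per kb of exon, a scale on which genes can be compared, Hoxb9 had the highest MEF level at 23.7 CPM per kb, followed by Hoxc8 at 21.2, Hoxc6 at 13.3, Hoxc10 at 12.5 and Hoxd8 at 10.6. Hoxb1 and Hoxb13 had 0 counts in MEFs. Naïve cells were led by Hoxb9 at 8.19 CPM per kb, and then by Hoxc6 (3.64), Hoxc8 (3.49), Hoxa5 (2.28) and Hoxc10 (2.15). Primed cells were led by Hoxc6 at 6.73 CPM per kb, with Hoxb9 at 4.47, Hoxb4 at 4.45, Hoxb6 at 3.21 and Hoxb7 at 2.99. The first 3 members in naïve cells were thus the first 3 of MEFs in another order, while Hoxb4, Hoxb6 and Hoxb7 were among the first 5 only in primed cells. Of the summed Hox CPM, the central paralogs 4 to 8 made up 53.8% in naïve cells, 65.3% in primed cells and 56.9% in MEFs. The posterior paralogs 9 to 13 made up 41.6%, 30% and 38.2%, and the anterior paralogs 1 to 3 made up 4.58%, 4.65% and 4.95%.

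Since both states grew on MEFs, the level of each member was set against that of the MEF library and against that of fibroblast genes. The 30 feeder fibroblast markers (collagens, lumican and other matrix and contractile genes) summed to 95700 CPM in MEFs, to 12200 to 12300 CPM in naïve P5, 20100 to 20900 in naïve P15, 7530 to 7720 in primed P5 and 17500 to 18200 in primed P15 libraries, and none of them was at 0 in any group. The 28 transcription factors of mesenchymal cells in a further list summed to 487 to 493, 529 to 537, 576 to 591 and 670 to 686 CPM in the same groups and to 2410 CPM in MEFs. The median marker stood at 12.5% to 25.3% of its MEF level over the 8 libraries. The median mesenchymal factor stood at 20.5% to 25.4%, and that of the 27 Hox members with at least 30 MEF counts was 15.2% to 28.3%. Hox members therefore lay in a range of the MEF level that overlapped that of the fibroblast genes, and both sets spread widely around their medians. In naïve P5 the Hox members ran from 5.46% to 35% of the MEF level, in naïve P15 from 7.82% to 42.1%, in primed P5 from 8.5% to 69.4% and in primed P15 from 8.38% to 84.8%. The feeder markers ran from 5.82% to 57.2%, 6.45% to 68.3%, 2.92% to 218% and 2.6% to 347% in the same groups. Of the 27 members, 12 stood above the median feeder marker in naïve P5, 16 in naïve P15, 23 in primed P5 and 15 in primed P15. In a culture on feeders, fewer fibroblasts and less Hox RNA per cell cannot be told apart, and how much of the Hox RNA came from fibroblasts was not tested.

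**Figure D2:**
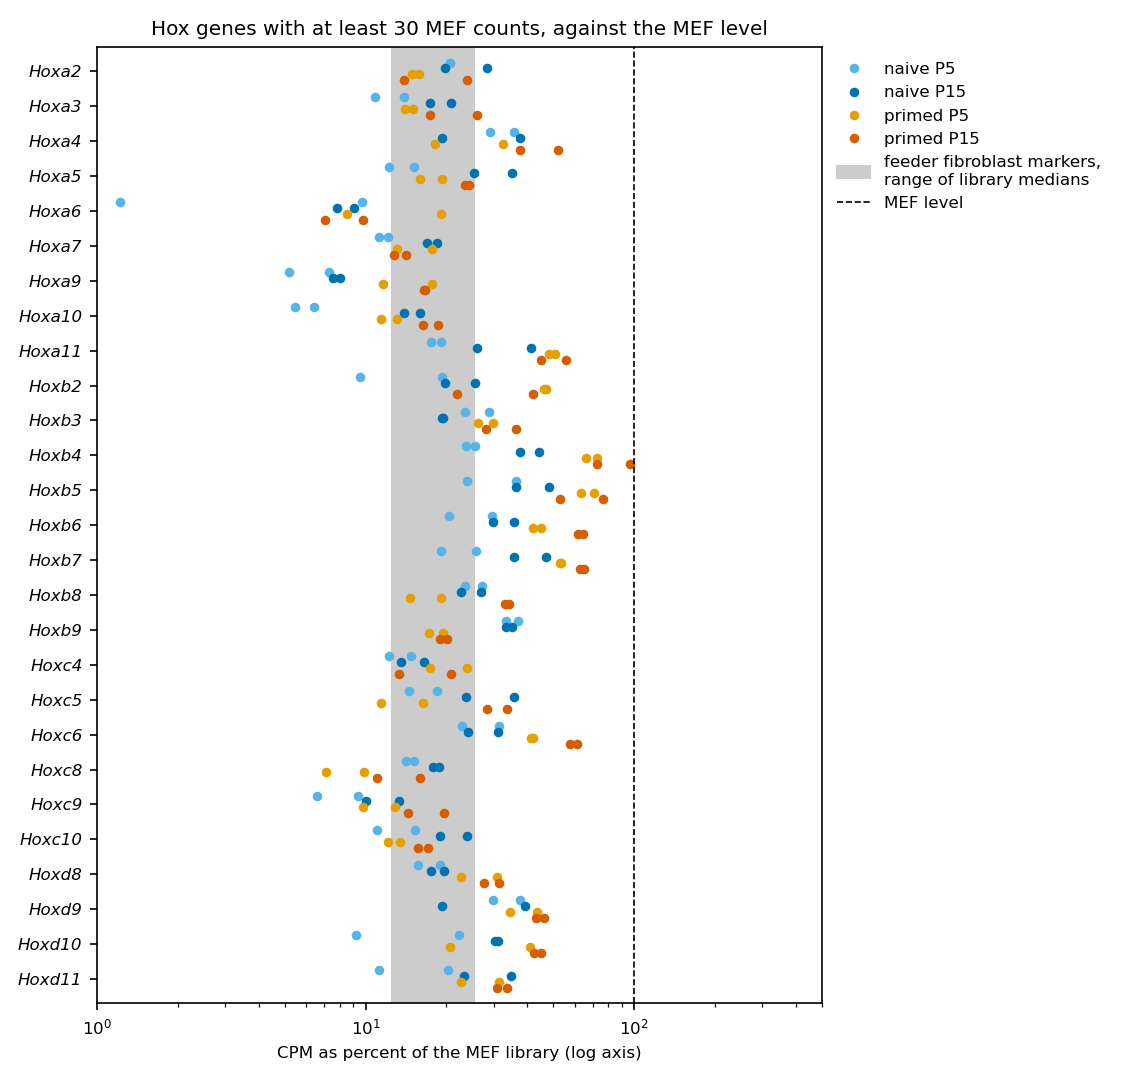
Level of the 27 Hox genes with at least 30 MEF counts as a percent of the MEF library, on a log axis; each point is a library, the grey band runs over the library medians of the 30 feeder fibroblast markers (12.5% to 25.3%) and the dashed line is the MEF level. All points are left of the dashed line, Hoxb4 to Hoxb7 of primed cells lie right of the grey band, and Hoxa6, Hoxa9 and Hoxc9 of naïve cells lie left of it or in it.

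A few members were more abundant in stem cells than in MEFs, all of them at the ends of the clusters, in paralog groups 1, 12 and 13. Hoxd13, the last gene of its cluster and a limb and genital patterning gene, had 36 and 29 counts in naïve P5, 59 and 41 in naïve P15, 33 and 19 in primed P5, 31 and 26 in primed P15, and 4 in MEFs. It was above MEFs in all 8 libraries, with group means of 9.48, 20.5, 7.92 and 9.57 times the MEF CPM. Hoxc13, which acts in hair and nail, had 38 and 54 counts in naïve P5, 34 and 32 in naïve P15, 16 and 27 in primed P5, 8 and 5 in primed P15, and 7 in MEFs. Its group means were 7.66, 7.64, 3.85 and 1.25 times the MEF CPM, and the second primed P15 library was below MEFs. With only 4 MEF counts for Hoxd13 and 7 for Hoxc13, in 1 library, the size of these ratios is imprecise. The levels of these members in stem cells were thus not a fixed share of the MEF level.

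The remaining members above MEFs had few counts in the stem cells as well. Hoxb13, a gene of the tail end of the axis, had 12 and 14 counts in naïve P5, 6 and 4 in naïve P15, 1 and 3 in primed P5, and 0 and 1 in primed P15. Hoxb1, a hindbrain gene and retinoic acid target, had 3 and 2 counts in naïve P5, 8 and 2 in naïve P15, 0 and 1 in primed P5, and none in either primed P15 library. Hoxd12 had 1 and 2 counts in naïve P5, 7 and 8 in naïve P15, 3 and 0 in primed P5, 6 and 4 in primed P15, and 2 in MEFs. For Hoxb1 and Hoxd12 these counts were mostly at or near the limit of 3. Hoxa13 was above its MEF level of 0.595 CPM in 1 naïve P15 library (1.25 CPM) and 1 primed P15 library (0.682 CPM), and Hoxd1 was above its MEF level of 0.298 CPM in 1 naïve P15 library (0.516 CPM). Hoxc12 had single counts in 1 naïve P5 and 1 primed P15 library, and 1 in MEFs.

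**Figure D3:**
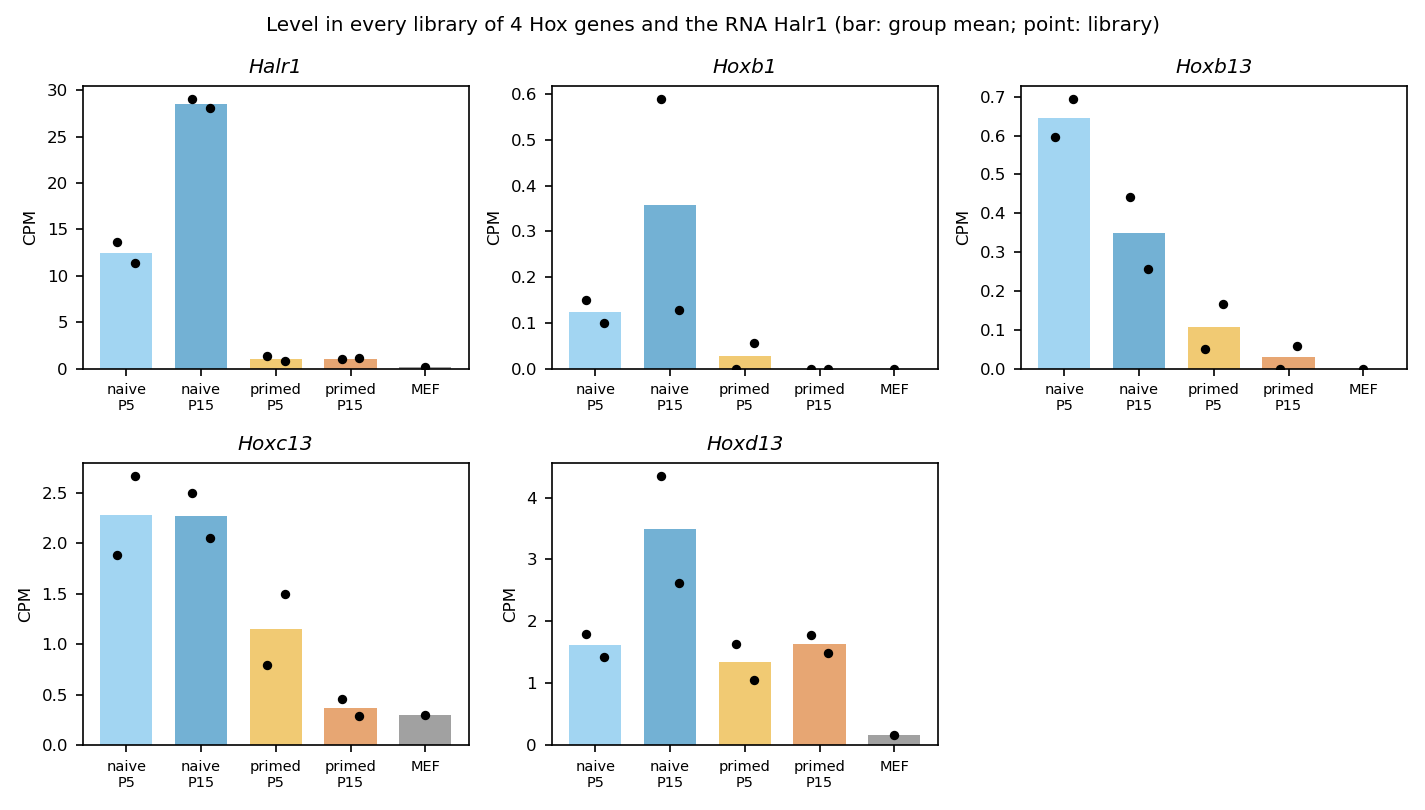
CPM in every library (points) and group mean (bars) of 4 Hox genes and of the noncoding RNA Halr1, on axes that start at 0. Halr1 is high in the 4 naïve libraries, Hoxb1 and Hoxb13 are at 0 in MEFs, and Hoxd13 is above MEFs in all 8 stem cell libraries.

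Promoters were looked at for every member with an entry, in windows of 250 bases before the start in RefSeq (GRCm38.p6). An entry was found for 22 of the 38 members (24 windows), and these windows held a median of 12.5 CpG dinucleotides against 6 over 32851 windows of all genes. Of these windows 3 are shown: that of Hoxb4, the member with the smallest adjusted p among those higher in primed cells at P5 (chr11:96318017-96318266, plus strand), that of Hoxb8, the member nearest to a difference between passages (chr11:96281655-96281904, plus strand), and that of Hoxd13 (chr2:74667975-74668224, plus strand). Capitals mark matches on either strand to any of 5 short motifs, whose letters are given after the windows, and overlapping matches run together:
Hoxb4: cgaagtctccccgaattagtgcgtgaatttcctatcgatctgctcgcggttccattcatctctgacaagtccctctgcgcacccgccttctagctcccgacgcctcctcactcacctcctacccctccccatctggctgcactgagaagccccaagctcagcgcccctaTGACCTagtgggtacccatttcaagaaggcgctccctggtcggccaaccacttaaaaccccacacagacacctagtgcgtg
Hoxb8: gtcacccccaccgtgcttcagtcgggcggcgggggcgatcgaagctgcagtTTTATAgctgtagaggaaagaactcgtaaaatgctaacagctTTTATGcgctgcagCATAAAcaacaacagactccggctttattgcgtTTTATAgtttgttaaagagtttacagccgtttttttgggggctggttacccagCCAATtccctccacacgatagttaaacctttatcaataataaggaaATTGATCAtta
Hoxd13: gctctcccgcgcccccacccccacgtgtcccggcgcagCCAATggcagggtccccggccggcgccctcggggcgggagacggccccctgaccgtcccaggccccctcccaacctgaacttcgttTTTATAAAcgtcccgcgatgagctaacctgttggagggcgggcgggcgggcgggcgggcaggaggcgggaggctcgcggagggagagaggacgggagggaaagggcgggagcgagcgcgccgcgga
The Hoxb4 window held 14 CpG and a single copy of the retinoid receptor core motif, of which a receptor element holds a spaced pair, the Hoxb8 window 12 CpG and matches to TATA, CCAAT, PBX and Hox, and Cdx motifs, and the Hoxd13 window 31 CpG with a TATA and a CCAAT box. These short motifs are common. The TATA box, searched as TATAAA, was found in 12.4% of all windows and in 16.7% of the 24 Hox windows. The CCAAT box was found in 33.8% and 58.3%. The site of PBX with Hox proteins, searched as TGATNNAT, was found in 7.68% and 16.7%. The retinoid receptor core motif, searched as a single AGGTCA, was found in 14% and 25%. The Cdx site, searched as TTTATG, was found in 10.8% and 20.8%. A match describes the letters of a window and not a bound site.

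The comparison of primed with naïve cells at P5 asked how the Hox genes differed between the states soon after conversion. The 7 members that were higher in primed cells all lay between Hoxb2 and Hoxb7 or between Hoxa9 and Hoxa11, while Hoxb13, from the posterior end of its cluster, was lower. Within the Hoxb span, Hoxb3 (log2 fold change 0.135) and Hoxb6 (0.82) were not called. Of 28 members tested, 7 were higher against 13.5% of all genes, and 1 was lower against 8.85% of all genes, where a call needed both an adjusted p below 0.01 and a change of 2-fold or more (edgeR's quasi-likelihood test, Benjamini-Hochberg over 16482 genes). The median log2 fold change was 0.42 over the members tested and 0.01 over all genes. The 30 feeder fibroblast markers had a median of -0.56, with 3 higher and 9 lower, and the 27 mesenchymal factors tested had a median of 0.26, with 5 higher and 2 lower. The Hox genes and the collagen-type markers thus had medians of opposite sign, and the part of the feeder cells in either was not tested. DESeq2's Wald test at the same thresholds called fewer, with 2 of 28 members higher (Hoxb4 and Hoxb7) against 11.2% of all genes and 0 lower against 7.32% of all genes, and 10 higher and 3 lower at an unadjusted p under 0.05. After subtraction of a feeder share, the median ratio of the feeder markers to MEFs, Hoxa9 and Hoxa10 did not pass the filter on low counts.

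Hoxb4, a gene of the hindbrain and neck known for its effect on blood stem cells, had 76 and 71 counts in naïve P5 and 197 and 194 in primed P5. Its log2 fold change was 1.52 ± 0.16 (SE), with an adjusted p of 1.52e-09 by edgeR. Hoxb7, from the same cluster, had 30 and 41 counts in naïve P5 and 84 and 76 in primed P5, with a log2 fold change of 1.28 ± 0.25 and an adjusted p of 4.13e-05 by edgeR. In primed P5 Hoxb4 stood at 69.4% and Hoxb7 at 53.3% of the MEF level.

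The other 5 members called higher had fewer counts or a smaller change. Hoxa9, a posterior gene with a role in blood progenitors, had 22 and 31 counts in naïve P5 and 49 and 67 in primed P5 (log2 fold change 1.25). Hoxa10, a gene of the lower trunk and uterus, had 28 and 33 counts in naïve P5 and 58 and 60 in primed P5 (1.06). Hoxa11, needed for the forearm and uterus, had 13 and 12 counts in naïve P5 and 33 and 31 in primed P5 (1.46). These 3 posterior Hoxa genes are neighbours. Hoxb2, a hindbrain gene, had 10 and 5 counts in naïve P5 and 24 and 22 in primed P5 (1.71), and Hoxb5 had 17 and 26 against 45 and 45 (1.17). The adjusted p of these 5 genes ran from 0.000639 for Hoxa9 to 0.00255 for Hoxb2 by edgeR. Each of these 5 calls was lost without at least 1 library, in a fit that leaves a group of 1. A lost call there need not mean a changed effect. Without the second primed P5 library the log2 fold changes of Hoxa11 and Hoxb2 stayed close to those above. Without the second primed P5 library only Hoxb4 and Hoxb7 were called, and Hoxa9, Hoxa10, Hoxa11, Hoxb2 and Hoxb5 had log2 fold changes of 0.95, 0.99, 1.45, 1.72 and 1.12. Without the first naïve P5 library Hoxa9 (0.996), Hoxa10 (0.93) and Hoxb5 (0.88) were not called. Hoxb2 was not called without the second naïve (1.28) or the first primed P5 library (1.75), nor was Hoxb5 without the latter (1.28).

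Hoxb13, the member called lower in primed cells, had 26 counts in the naïve P5 libraries together and 4 in the primed P5 libraries, a ratio of 6.15 in CPM with a 95% exact interval of 2.13 to 24.2 for counting error. Its adjusted p was 0.00327 by edgeR. It was not called without the first primed P5 library (log2 fold change -1.86), and without either naïve P5 library it did not pass the filter on low counts. Other members passed the adjusted p and stayed short of a 2-fold change. Hoxb9, the most abundant member per kb in naïve cells, had 451 and 409 counts in naïve P5 and 238 and 189 in primed P5, a log2 fold change of -0.90 ± 0.11 with an adjusted p of 1.57e-08 by edgeR. Hoxc8 had 184 and 171 counts against 86 and 107 (-0.76). In the other direction Hoxc6 had 202 and 148 against 271 and 239 (0.65), Hoxb6 had 49 and 71 against 100 and 96 (0.82) and Hoxd8 had 91 and 111 against 132 and 161 (0.65).

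The comparison at P15 asked the same of cells kept for longer in each state. Hoxa9, Hoxb4 and Hoxc6 were higher in primed cells, and Hoxc13 and Hoxd13 were lower. Of 29 members tested, 3 were higher against 12.2% of all genes and 2 were lower against 11% of all genes (edgeR, over 15733 genes). The median log2 fold change was 0.44 over the members tested and -0.004 over all genes. The 30 feeder fibroblast markers had a median of 0.12, with 5 higher and 4 lower, and the 27 mesenchymal factors one of 0.40, with 4 higher and 3 lower, and their part in the Hox values was not tested. Hoxa9 and Hoxd13 were not called by DESeq2 (adjusted p 0.0313 and 0.0305), and after subtraction of the median feeder share Hoxa9 did not pass the filter and Hoxd13 was not called (log2 fold change -1.05, adjusted p 0.0399 by edgeR).

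Hoxc6, a trunk gene, had 135 and 121 counts in naïve P15 and 342 and 325 in primed P15, with a log2 fold change of 1.10 ± 0.14 and an adjusted p of 1.52e-08 by edgeR. Hoxb4 had 89 and 87 counts against 188 and 252 (1.05 ± 0.17, adjusted p 2.12e-06 by edgeR). Hoxa9 had 23 and 25 against 61 and 61 (1.07 ± 0.30, adjusted p 0.00232 by edgeR). In all 3 genes the change was close to the 2-fold threshold. Without the second naïve P15 library their log2 fold changes were 0.90, 0.90 and 0.999, none was called, and Hoxb6 was the only member called higher. Without the second primed P15 library only Hoxc6 was called, with Hoxb4 at 0.85 and Hoxa9 at 1.10, and Hoxa9 was also not called without the first primed P15 library (1.09).

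Hoxc13 had 34 and 32 counts in naïve P15 and 8 and 5 in primed P15 (log2 fold change -2.60 ± 0.47, adjusted p 8.66e-06 by edgeR). Hoxd13 had 59 and 41 against 31 and 26 (-1.09 ± 0.32, adjusted p 0.00301 by edgeR). The change of Hoxd13 rested on the first naïve P15 library, without which it was -0.72 with an adjusted p of 0.0861 by edgeR. It was also not called without the first (-1.21) or the second primed P15 library (-0.94). Hoxc13 did not pass the filter on low counts without either naïve P15 library. Hoxb9 was again lower by less than 2-fold, with 275 and 334 counts against 201 and 215 (-0.82 ± 0.12, adjusted p 4.34e-07 by edgeR).

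**Figure D4:**
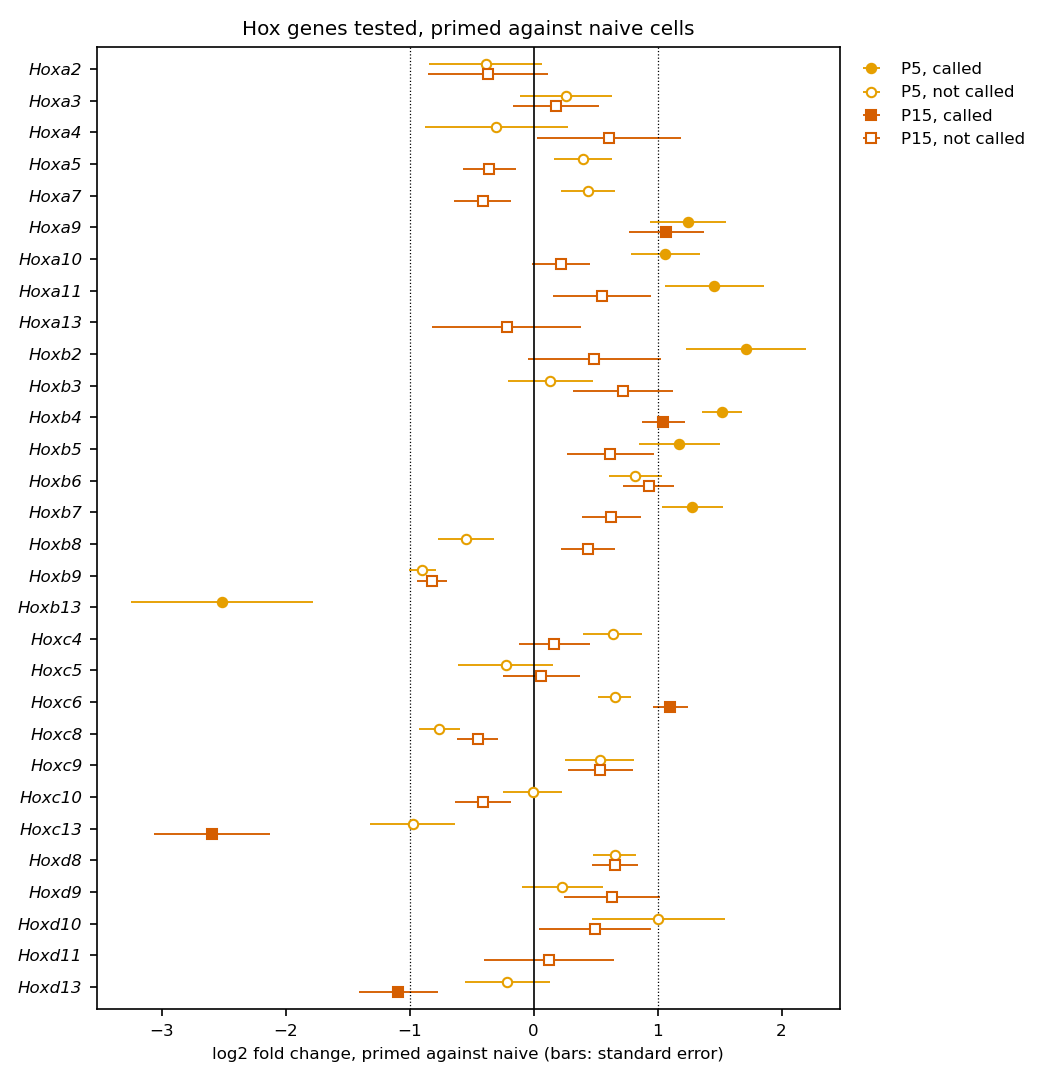
Log2 fold change of primed against naïve cells with its standard error for each Hox gene tested, at P5 (circles) and P15 (squares); filled symbols were called, and dotted lines mark 2-fold. Hoxc13 at P15 is at -2.60, Hoxb2 to Hoxb7 are right of 0 and Hoxb9 is left of 0 at both passages.

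Ratios between members of 1 cluster within a library do not depend on how libraries are scaled, and they set the states apart. The number of Hoxb9 counts per Hoxb4 count was 5.93 and 5.76 in naïve P5, 3.09 and 3.84 in naïve P15, 1.21 and 0.974 in primed P5, 1.07 and 0.853 in primed P15, and 4.11 in MEFs. The naïve libraries lay on both sides of the MEF ratio, and all 4 primed libraries lay below it and below all naïve libraries. Hoxc8 counts per Hoxc6 count were 0.911 to 1.38 in the naïve, 0.317 to 0.517 in the primed and 1.87 in the MEF libraries. All 8 stem cell libraries were below MEFs in this ratio, and the primed libraries were the lowest. Both pairs were picked after their values were seen, so the ratios are a description. Along the Hoxb cluster, the percent of the MEF level in primed P5 and P15 was 69.4% and 84.8% for Hoxb4, 67% and 64.8% for Hoxb5, 43.4% and 63% for Hoxb6, 53.3% and 63.9% for Hoxb7, 16.8% and 33.7% for Hoxb8, and 18.3% and 19.5% for Hoxb9. Primed cells thus had a higher share of the MEF level for Hoxb4 to Hoxb7 than for their neighbours Hoxb8 and Hoxb9. On the other side, Hoxb3 stood at 28% and 32.2% and Hoxb2 at 46.5% and 32% in primed P5 and P15. Hoxb2 was thus above Hoxb6 at P5, and the edge on this side was less clear.

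**Figure D5:**
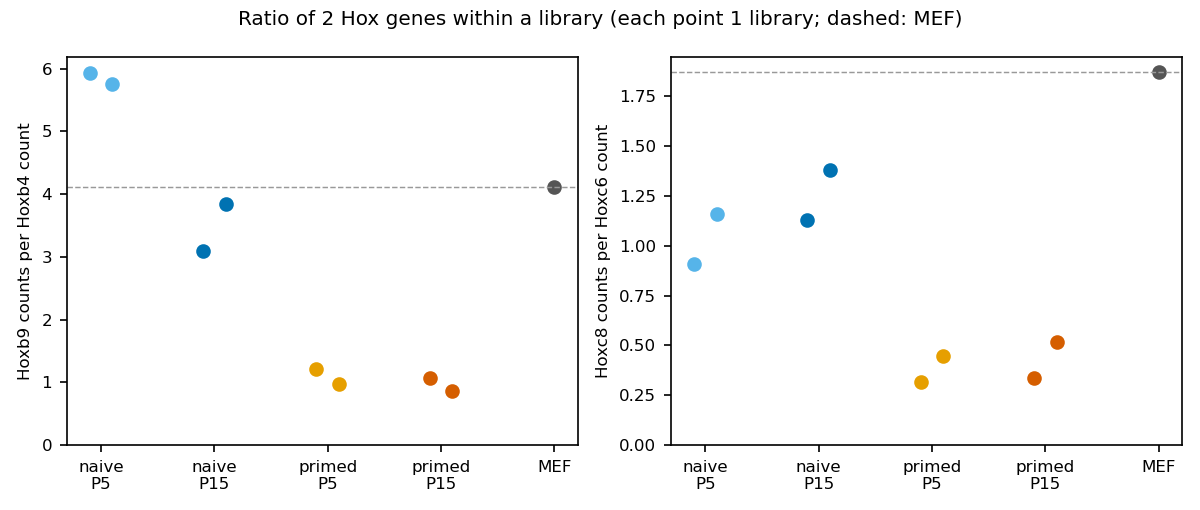
Counts of Hoxb9 per count of Hoxb4 (left) and of Hoxc8 per count of Hoxc6 (right) in each library, with the MEF ratio as a dashed line. The primed libraries are at 0.853 to 1.21 on the left and 0.317 to 0.517 on the right, below the naïve libraries in both panels.

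Few members were called between the passages, and the shares of all genes called are given beside them. Between P15 and P5 in naïve cells, the question was which members changed with time in one state. Hoxa5, a gene of the neck, lung and ribs, and Hoxa10 were higher at P15 among 26 members tested, against 0.414% of all genes, and 0 were lower, against 0.721% of all genes. No member with a negative fold change had an unadjusted p under 0.05 (0 by edgeR), and DESeq2 also called 0 lower. Hoxa5 had 48 and 60 counts at P5 and 67 and 107 at P15, in CPM 2.39 and 2.97 against 4.93 and 6.84, with a log2 fold change of 1.14 ± 0.23 and an adjusted p of 0.00448 by edgeR. Hoxa10 had 28 and 33 counts against 55 and 55 (1.32 ± 0.27, adjusted p 0.00496 by edgeR). Both genes had 2 libraries a passage. Neither was called without the first naïve P5 library, where the log2 fold changes were 0.99 for Hoxa5 and 1.20 for Hoxa10. Hoxa10 was not called without the first naïve P15 library (1.21), and Hoxa5 was not called without the second (0.89), where Hoxd13 was called instead. DESeq2 called Hoxa5 and not Hoxa10 (adjusted p 0.0133), and neither passed the filter after subtraction of the median feeder share. The median log2 fold change of the members tested was 0.43, and that of the 30 feeder fibroblast markers was 0.43, with 5 higher and 1 lower, and whether the markers account for the Hox values was not tested.

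In primed cells, Hoxc5 was higher and Hoxc13 lower at P15 than at P5. These were 1 of 29 members tested in each direction, against 3.18% of all genes higher and 8.43% of all genes lower. Hoxc5, a neck gene, had 18 and 23 counts at P5 and 46 and 39 at P15 (1.14 ± 0.33, adjusted p 0.00398 by edgeR), and Hoxc13 had 16 and 27 against 8 and 5 (-1.62 ± 0.50, adjusted p 0.00731 by edgeR). Hoxc5 was not called without the first primed P15 library (1.01) or the first primed P5 library (0.87), where Hoxb8 was called instead. Hoxc13 was not called without the second primed P15 library (-1.32) and did not pass the filter without either primed P5 library. Neither gene was called by DESeq2 (adjusted p 0.0482 for Hoxc5 and 0.0692 for Hoxc13) or after subtraction of the median feeder share. Hoxb8, with 64 and 44 counts at P5 and 100 and 97 at P15, passed the adjusted p at a log2 fold change of 0.96 ± 0.21 (adjusted p 0.000325 by edgeR), just short of 2-fold. The members tested had a median of 0.23, and the feeder fibroblast markers one of 0.91, with 14 of 30 higher and 1 lower.

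Whether the effect of the state differed between the passages was tested as the difference of the log2 fold changes in all 8 stem cell libraries. No Hox gene was called: 0 of 30 members tested were higher, against 2.36% of all genes, and 0 were lower, against 4.8% of all genes. At an unadjusted p under 0.05 edgeR gave 2 with a positive and 4 with a negative difference, and DESeq2 called 0 in either direction. The smallest adjusted p was that of Hoxb8 (0.0106 by edgeR), with a difference of 1.0 ± 0.31. Its log2 fold change was -0.55 at P5 and 0.44 at P15, and neither was called. The calls that appear at 1 passage only, such as Hoxc13 at P15, were therefore not shown to differ between passages by this test; for Hoxc13 the difference was -1.61 ± 0.61 with an adjusted p of 0.0395 by edgeR.

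Several abundant members were not called between the states at one or both passages. Hoxc8, which patterns the lower neck and the thorax, had 153 and 167 counts in naïve P15, 115 and 168 in primed P15 and 1412 in MEFs. In CPM these were 11.3 and 10.7 in naïve P15 and 6.6 and 9.54 in primed P15, which did not overlap, and the log2 fold change of -0.45 ± 0.17 was not called. Hoxc10 had 73 and 53 counts in naïve P5, 61 and 89 in naïve P15, 64 and 52 in primed P5, 65 and 71 in primed P15 and 559 in MEFs. Its groups overlapped in CPM at P5 and not at P15, where the log2 fold change was -0.41 ± 0.23. Hoxa5 had 76 and 56 counts in primed P5 and 80 and 83 in primed P15. In CPM its primed libraries were above the naïve ones at P5 (3.78 and 3.11 against 2.39 and 2.97). They were below the naïve ones at P15 (4.59 and 4.71 against 4.93 and 6.84). Neither difference was called, with log2 fold changes of 0.398 ± 0.238 and -0.359 ± 0.215. At P15 Hoxb6 had 48 and 66 counts in naïve and 133 and 129 in primed cells (log2 fold change 0.93 ± 0.21), Hoxb7 had 50 and 44 against 89 and 87 (0.63 ± 0.24) and Hoxd8 had 69 and 89 against 140 and 161 (0.66 ± 0.18). These 3 members were higher in primed cells by less than 2-fold at P15.

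The 15 members that were neither called in a comparison, nor among the 5 highest per kb, nor above MEFs in a library were spread over all clusters. Besides Hoxb8 and Hoxd4, given above, Hoxa7, Hoxc4 and Hoxc9 had 33 to 96 counts in a stem cell library and 437 to 636 in MEFs. Hoxa2, Hoxa3, Hoxb3 and Hoxd9 had 10 to 42 counts in a stem cell library and 96 to 217 in MEFs. Hoxa4, Hoxa6, Hoxd10 and Hoxd11 had 1 to 22 counts, Hoxc11 0 to 8 and Hoxd3 0 to 6, against 15 to 96 in MEFs. None of the 15 was called in any of the 5 comparisons, and Hoxa6, Hoxc11, Hoxd3 and Hoxd4 did not pass the filter on low counts at P5 or P15.

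Genes that act with or on the Hox genes, or lie beside them, were looked at as 4 lists. Of the noncoding RNAs of the clusters, 4 of 18 passed the filter at P5 and 2 at P15. Halr1 was called lower in primed cells at both passages, with none higher. Of all genes, 8.85% were lower and 13.5% higher at P5, and 11% and 12.2% at P15. Halr1, a long noncoding RNA also known as Haunt and studied as a regulator of the Hoxa cluster in mouse ES cells, lies beside that cluster (chr6:52102949-52113684, plus strand). It had 273 and 230 counts in naïve P5, 394 and 439 in naïve P15, 27 and 14 in primed P5, 18 and 19 in primed P15, and 5 in MEFs. Its log2 fold change was -3.50 ± 0.22 at P5 (adjusted p 8.05e-15 by edgeR) and -4.76 ± 0.19 at P15 (adjusted p 8.71e-23 by edgeR). Every naïve library was above every primed library and above MEFs.

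Of 11 Hox cofactors, 10 were homeodomain proteins of the PBX and MEIS families and their relatives and 1 was the histone deacetylase Hdac3. Of the 11, 2 were higher in primed cells at P5 and 2 at P15, against 13.5% and 12.2% of all genes. None was lower, against 8.85% and 11% of all genes. Pknox2 had 2.59 to 5.56 CPM in naïve and 10.1 to 14.9 in primed libraries, and Meis3 had 4.08 to 6.11 and 10.2 to 19.9. Pbx2 had 75.1 to 86.2 CPM in naïve and 120 to 125 in primed libraries, a change below 2-fold. For these 3 genes MEFs had 23, 28.6 and 56.1 CPM.

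Of 15 genes that act upstream of the clusters, 3 were higher and 3 lower among 13 tested at P5. At P15, 1 was higher and 3 were lower among 12 tested. Of all genes, 13.5% were higher and 8.85% lower at P5, and 12.2% and 11% at P15. Cyp26a1, the enzyme that degrades retinoic acid, had 7 to 14 counts in naïve, 1205 to 2049 in primed libraries and 19 in MEFs, with a log2 fold change of 7.41 ± 0.12 at P5 and 6.90 ± 0.17 at P15. Egr2, a hindbrain factor that activates Hox genes, was lower in primed cells, at 30.1 to 50.8 CPM in naïve and 3.73 to 4.93 in primed libraries. Gbx2 was lower as well, at 12.3 to 33.5 CPM in naïve and 1.22 to 1.94 in primed libraries. Cdx1, a caudal-type factor that acts on Hox genes, was named after its values were seen and had 66 to 142 counts in naïve libraries, 0 to 5 in primed libraries and 1 in MEFs. Kmt2a, a histone methyltransferase that maintains Hox expression, changed by less than 2-fold, with a log2 fold change of 0.83 ± 0.04 at P5 and -0.03 ± 0.07 at P15.

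Genes next to the clusters that are not Hox genes had levels of their own. Of the 16 neighbours, 3 of 16 tested were lower at P5 and 1 of 15 at P15, against 8.85% and 11% of all genes. None was higher in primed cells, against 13.5% and 12.2% of all genes. Skap2, beside the Hoxa cluster and beyond Halr1, had 46.8 to 56.7 CPM in naïve and 22.6 to 30.5 CPM in primed libraries, and it was called at P5 (-1.002 ± 0.07) and not at P15 (-0.95 ± 0.08). Atp5g1 had 117 to 162 CPM in naïve and 57 to 101 in primed libraries, Snx11 had 19.4 to 22.3 and 10.5 to 13.7, and Calcoco1 had 51.7 to 55 and 69.6 to 86.2. These 4 neighbours were expressed in both states and in MEFs at 24.5 to 91.6 CPM. The neighbour called lower at both passages was Ttll6, named after its values were seen, which had 47 and 39 counts in naïve P5, 23 and 35 in naïve P15, 8 and 6 in primed P5, 2 and 3 in primed P15 and 0 in MEFs.

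Markers of other cell types also differed between the states, and their part in the Hox values was not tested. The 12 genes of the primitive streak and caudal mesoderm summed to 11.4 to 13.6 CPM in naïve, 252 to 428 CPM in primed libraries and 1.49 in MEFs, with 5 of 12 at 0 in MEFs. The 10 neural genes summed to 87.7 to 114 CPM in naïve, 67.8 to 85.8 in primed libraries and 92.2 in MEFs. Of these sums, Tubb3 alone had 50 to 64.6 CPM in naïve, 9.84 to 14 in primed libraries and 60.5 in MEFs. Each passage had 8 neural genes tested, with 3 calls in either direction. Of all genes, 13.5% were higher and 8.85% lower at P5, and 12.2% and 11% at P15. The median log2 fold change of the neural genes was 0.78 at P5 and 0.80 at P15, so the sum and the median differed in direction. The 8 endoderm genes summed to 17.8 to 24 CPM in naïve and 91.5 to 156 in primed libraries. The 8 pluripotency genes summed to 3520 to 3650 CPM in naïve, 1440 to 2340 in primed libraries and 2.93 in MEFs. This sum sets the stem cells apart from MEFs. The 10 genes of the naïve state summed to 2270 to 2730 CPM in naïve, 117 to 286 in primed libraries and 145 in MEFs. The 8 genes of the primed state summed to 434 to 503, 1370 to 1400 and 25.7 CPM, so each state was highest in its own list.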

How the data were processed

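RNA-seq of 9 libraries was used, in 4 groups of 2 (state by passage) and 1 of MEFs, grouped by the deposited sample titles. The deposited values are raw counts per gene, which the authors made from poly(A) RNA (NEBNext Ultra kit, HiSeq) with Cutadapt, HISAT2 (up to 20 alignments a read) to mm10 and featureCounts on an Ensembl annotation. Its release and how strand and reads with several alignments were counted are not given in the sources used here, so reads shared by near-identical sequences may be split or lost. Of 54232 gene IDs, 54079 had a symbol in GENCODE M21 (GRCm38), which also gave coordinates and exon lengths. A further 92 spike-in entries had 0 counts and were left out.

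CPM were computed with TMM over all 9 libraries in R 4.3.3 with edgeR 4.0.16. Groups were compared by edgeR's quasi-likelihood test, two-sided, after TMM within the libraries of a fit, on genes that reached 10 counts in 2 or more libraries. The Benjamini-Hochberg adjustment ran over all genes tested, and a call needed both an adjusted p below 0.01 and a change of 2-fold or more. The standard errors of edgeR fold changes were derived from the test, as the absolute log2 fold change over the square root of its F statistic. The MEF library entered no fit, so values against MEFs have no replicate check. The code was tested on simulated counts.

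The members, gene lists and tests were chosen with earlier results of these data known. Of the lists, 1 member and 1 cofactor are not reported here and were left out of all counts and sums over lists, though not of the fits. Values in every library are given for members called in a comparison, the 5 highest per kb in MEFs, naïve and primed cells, and members above their MEF level. Of each other list at most 4 members, those with the smallest adjusted p at P5 or P15, are named, besides Cdx1 and Ttll6. Alternatives were DESeq2 1.42.0 (Wald test or size factors), scaling by total counts only (library size alone), all genes without the filter, 1 fit of 8 libraries, a block for the replicate number, each library left out, and subtraction of a feeder share of the MEF counts (the median or the lowest ratio of 30 fibroblast markers to MEFs). DESeq2 without the filter and a block with crossed pairs were added after seeing the data. Promoter windows came from RefSeq, and shared runs from GENCODE M21 coding sequences.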

Additional observations from a re-analysis of the deposited data

Results flagged for a closer look

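For 3 genes named beside the Hox genes, the effect of the state differed between P15 and P5 by edgeR's test of the difference in all 8 stem cell libraries. Halr1 was lower in primed cells by more at P15, with a difference of log2 fold changes of -1.24 and an adjusted p of 0.00824. Gbx2 differed in the same way by -1.36, with an adjusted p of 0.00129. Pknox2, which was higher in primed cells, was higher by less at P15, with a difference of -1.31 and an adjusted p of 6.7e-05. No Hox gene met this test.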

How the results depend on the processing

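The 17 Hox fold changes called in the 4 two-group comparisons were computed under 214 alternatives, of which 153 kept the call, 61 lost it and 0 had the other sign. Hoxb4 and Hoxb7 at P5 were called under each of them. Hoxc13 at P15 was called wherever it passed the filter, which it did only through the naïve libraries, where it was higher. DESeq2's Wald test called 2 higher and 0 lower at P5 (11.2% and 7.32% of all genes), 2 higher and 1 lower at P15 (10.3% and 9.66%), 1 higher in the naïve and 0 in either direction in the primed passage comparison, and on all genes, an alternative added after the values were seen, 2 higher and 0 lower at P5, 1 lower at P15, and 0 in both passage comparisons. Without the filter edgeR called 4 higher and 0 lower at P5 (6.9% and 4.56% of all genes). It called 0 higher in the naïve passage comparison (0.157%) and 1 higher (Hoxb8) in the difference between passages (1.46%). Scaling by library size alone moved the median log2 fold change of all genes to 0.21 at P5, 0.10 at P15, -0.13 in the primed passage comparison and -0.11 in the difference between passages. It left 1 of the members lower at P15 and 0 higher in the primed passage comparison, and at P5 its calls over all genes were 2863 higher and 1083 lower against 2222 and 1458.

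For the feeder share, the median marker stood at 15.44% to 27.89% of MEFs by library size, and the lowest marker at 2.77% to 6.81%. Subtraction of the median share left 20.7% to 47.8% of the Hox counts of a library, and of the lowest share 69.8% to 91.3%. The median share lowered the summed Hox CPM to 24.9, 26.6, 45.9 and 38 in naïve P5, naïve P15, primed P5 and primed P15, the lowest share to 61.8, 82.4, 88 and 114, and library size alone moved it to 84.4, 105 and 114 in the first 3 of these groups. With the median share 10 members of 17 tested were higher (17.8% of all genes) and 2 lower (Hoxb9 and Hoxb13) at P5, with 5 of the 7 kept and Hoxa9 and Hoxa10 not tested, and 4 of 13 were higher (16.3%) and 2 lower at P15, where Hoxa9 was not tested and Hoxd13 lost its call. With that share 0 were higher in both passage comparisons, 3 were lower in the primed one (Hoxa5, Hoxb9 and Hoxc4) and 2 (Hoxa5 and Hoxb9) in the difference between passages. With the lowest share 12 of 26 were higher at P5 (15.2% of all genes), 6 of 27 at P15 (14%) and 2 of 28 in the primed passage comparison (3.51%), and the difference between passages had 1 higher (Hoxb8) and 1 lower (Hoxa10). Which share is right was not tested.

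Leaving out a library leaves a group of 1, assumed to vary like the others. Without each library in turn, 2 to 7 members were higher and 0 to 2 lower at P5, 1 to 3 higher and 0 to 1 lower at P15, 0 to 2 higher and 0 lower in the naïve passage comparison, 0 to 1 in each direction in the primed one, and 0 in either direction in the difference between passages. The low value at P5 came without the second primed library for higher and without the second naïve or first primed library for lower members. At P15 it came without the second naïve or second primed library for higher and without the first naïve library for lower members.

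The block for the replicate number gave 7 higher and 1 lower at P5 (13.4% and 8.78% of all genes) and 3 and 2 at P15 (11.2% and 10.2%). It gave 3 and 0 in the naïve (0.542% and 0.918%) and 1 and 1 in the primed passage comparison (3.27% and 8.79%). In the difference between passages it gave 0 and 0 (2.29% and 4.58%), so it moved no count by over 1.5 times. Deviations of same-numbered libraries from their group means correlated at -0.073 at P5, -0.106 at P15, 0.086 in naïve and 0.091 in primed cells, so the numbers do not pair the libraries. With crossed pairs at P15 3 were higher and 2 lower (12.2% and 11% of all genes). Genes of few counts limit the depth: with 2 libraries a group, Hoxa6, Hoxb1, Hoxc11, Hoxc12, Hoxd1, Hoxd3, Hoxd4 and Hoxd12 passed the filter in no comparison of the states.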
